A study of Mus musculus with 122 samples.

Results

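The genes described here are 9 genes of the mouse two-cell stage, Zscan4a, Zscan4b, Zscan4c, Zscan4d, Zscan4e, Zscan4f, Tcstv1, Tcstv3 and Zfp352. They were taken by name from a table of normalized read counts for 52459 genes in 38 RNA-seq libraries, and all 9 are in the table. The rule that chose them used no measured value, but it was set with earlier results of these data known. Mouse embryos switch on their own genome at the two-cell stage, and these genes belong to that early wave. In cultured embryonic stem (ES) cells a small, shifting part of the population re-expresses them and is called two-cell-like. The Zscan4 proteins carry a SCAN domain and zinc fingers and are known for their part in telomere elongation and genome stability in ES cells, Zfp352 is a zinc finger gene, and the Tcstv genes encode small proteins named for two-cell stage expression. In whole cultures, as here, more cells of that kind and more RNA per cell cannot be told apart.

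The question was whether loss of CTCF, the zinc finger protein that anchors chromatin loops together with cohesin, or gain of its germ cell paralogue CTCFL shifted these genes. All libraries came from E14Tg2a ES cells (129/Ola, XY) grown without feeders. Both Ctcf alleles carried an auxin-inducible degron (AID) and eGFP, the Tir1 ligase was expressed from Rosa26, and a doxycycline-inducible FLAG-tagged transgene with mRuby2 sat at Tigre. Each of the 4 lines was clonal and had 1 transgene, which was CTCF, CTCFL, LCL (the CTCF zinc fingers between the ends of CTCFL) or CLC (the CTCFL zinc fingers between the ends of CTCF). Cells were untreated (U), given 500 µM indole-3-acetic acid, which degrades the tagged CTCF (IAA, I), given 1 µg/ml doxycycline, which induces the transgene (Dox, D), or given both (ID). One label field gives 24 h of treatment and the treatment protocol gives 2 days, and these were not reconciled. The CTCFL line had 3 libraries each in U, I and D and 2 in ID, the CTCF line had 2 in U and 3 each in I, D and ID, and LCL and CLC had 2 in every condition. Nothing in the labels says that replicates were separate cultures, so that p-values measure the spread between libraries, which may be technical.

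The 6 Zscan4 genes lie in 1 cluster on chromosome 7 (GRCm38, GENCODE vM21). Zscan4a is at 10794242 to 10799057 on the minus strand and is annotated as an unprocessed pseudogene, and Zscan4b is at 10900740 to 10905050, minus. Zscan4c lies at 11005745 to 11010547, plus, and Zscan4d at 11161374 to 11166159, minus. Zscan4e lies at 11306378 to 11310682, minus, and Zscan4f at 11397915 to 11402318, plus. Tcstv1 and Tcstv3 are on chromosome 13, at 119893388 to 119894785 (minus) and 120316878 to 120318178 (plus), and Zfp352 is on chromosome 4 at 90218820 to 90225702 (plus). The copies of the cluster are near-identical: of all 50-base words in the transcripts of Zscan4b, 9.88% occurred in no other gene's transcripts, against 10.99% for Zscan4e, 13.2% for Zscan4f, 14.5% for Zscan4c, 36.4% for Zscan4a and 50.4% for Zscan4d. The share was 68.6% for Tcstv3, 85.0% for Tcstv1 and 92.9% for Zfp352. Values of the single Zscan4 genes, which were sequenced with paired reads of this length, are thus uncertain in how they divide reads among the copies, and the sum over Zscan4a to Zscan4f is given beside them.

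The promoters are shown because the Zscan4 genes moved together. RefSeq entries (GRCm38.p6) were at hand for 5 of the 9 genes, namely Zscan4b, Zscan4c, Zscan4d, Zscan4f and Zfp352. The 91 bases given for each Zscan4 gene, 5′ to 3′ on its own strand, are set so that the TATA box letters TATAAA, in capitals, are in register. For Zfp352, which has no such letters in the 250 bases before its start on either strand, the last 91 bases before the start are given.
Zscan4b, chr7:10905051-10905141, minus: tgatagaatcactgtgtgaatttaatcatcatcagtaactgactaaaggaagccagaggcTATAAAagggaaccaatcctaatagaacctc
Zscan4c, chr7:11005631-11005721, plus: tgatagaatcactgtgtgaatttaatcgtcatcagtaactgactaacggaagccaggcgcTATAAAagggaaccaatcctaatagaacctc
Zscan4d, chr7:11166183-11166273, minus: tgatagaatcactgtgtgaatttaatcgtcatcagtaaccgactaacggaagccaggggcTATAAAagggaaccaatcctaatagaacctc
Zscan4f, chr7:11397824-11397914, plus: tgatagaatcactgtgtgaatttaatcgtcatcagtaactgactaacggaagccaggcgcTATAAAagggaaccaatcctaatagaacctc
Zfp352, chr4:90218729-90218819, plus: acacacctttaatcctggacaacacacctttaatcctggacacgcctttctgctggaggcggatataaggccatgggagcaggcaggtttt
The stretches of Zscan4c and Zscan4f were the same base for base, 86 of the 91 positions were shared by the 4 Zscan4 promoters, and the lowest identity of any pair was 95.6%. TATAAA, searched on both strands of the 250 bases before the start, occurred in 12.4% of 32817 RefSeq promoters. The annotated starts differ in their distance to it, which is 31 bases in Zscan4b and Zscan4f, 54 in Zscan4c and 65 in Zscan4d, counted from the first base of TATAAA.

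In 36 libraries the number of reads could be recovered from the normalized counts, and it ranged from 6847072 in replicate 3 of CTCFL D to 49716771. A count of 3 reads corresponded to a normalized count of 1.77 to 11.2 in the CTCFL line, 2.51 to 4.54 in the CTCF line, 1.75 to 4.24 in LCL and 2.26 to 3.56 in CLC. Ctcfl, as check of the labels, rose with Dox from 193 to 225 in U to 7570 to 9398 in D and 5455 to 5572 in ID of the CTCFL line. It also rose from 27.2 and 36.5 to 384 and 416 in D of LCL and from 41.4 and 42.7 to 1791 and 1829 in D of CLC. Ctcf did not rise in the CTCF line, with 4691 and 4712 in U and 3550, 3845 and 3850 in the libraries labelled D, so its reads do not check the Dox labels there, and the libraries of that line are called by their labels. The 8 ES cell markers (among them Pou5f1, Nanog, Sox2 and Esrrb) summed to 90344 to 265374 in every library, against 594 to 7069 for 6 primitive endoderm genes, 2497 to 6780 for 6 trophectoderm genes and 225 to 2167 for 6 fibroblast genes, and none of these genes was at 0 in all libraries.

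IAA raised the Zscan4 genes and Zfp352 in the CTCF line. Zscan4d had normalized counts of 67.0 and 102 in U and of 357, 276 and 258 in I. Zscan4c had 53.2 and 87.3 in U and 256, 206 and 198 in I. Every I library was above every U library for both genes. The fold change in Zscan4d was 3.53 (log2 1.82 ± 0.20, SE, limma adjusted p = 9.89e-06) and that of Zscan4c 3.17 (log2 1.66 ± 0.23, adjusted p = 6.08e-05). Zscan4a went from 18.1 and 22.1 to 87.1, 105 and 83.0, Zscan4e from 65.9 and 72.9 to 254, 186 and 179, and Zscan4f from 43.6 and 41.98 to 144, 123 and 127. Their log2 fold changes were 2.13 ± 0.27, 1.54 ± 0.23 and 1.59 ± 0.21, and all 3 rose. Zfp352, which lies on another chromosome, rose from 4.25 and 9.94 to 26.1, 47.7 and 39.4, 4.97-fold (log2 2.31 ± 0.52, adjusted p = 0.00254). Zscan4b was at 11.7 and 12.2 in U and 40.7, 29.5 and 42.8 in I without overlap, but at an adjusted p of 0.0734 (log2 1.56 ± 0.67) it did not pass. Of the 7 genes with a mean of at least 10 in the line, 6 were thus called higher (here and throughout, a log2 change past 1 in size with a limma adjusted p under 0.01), where 5.0% of 16705 genes were. DESeq2 on recovered reads called all 7 and edgeR 6, and limma with all 4 lines in 1 fit called 2, Zscan4a and Zscan4c. The median log2 fold change of the 7 was 1.66, beside 0.03 over all genes tested. All 7 had every I library above every U library, as had 30.7% of all genes.

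**Figure D1:**
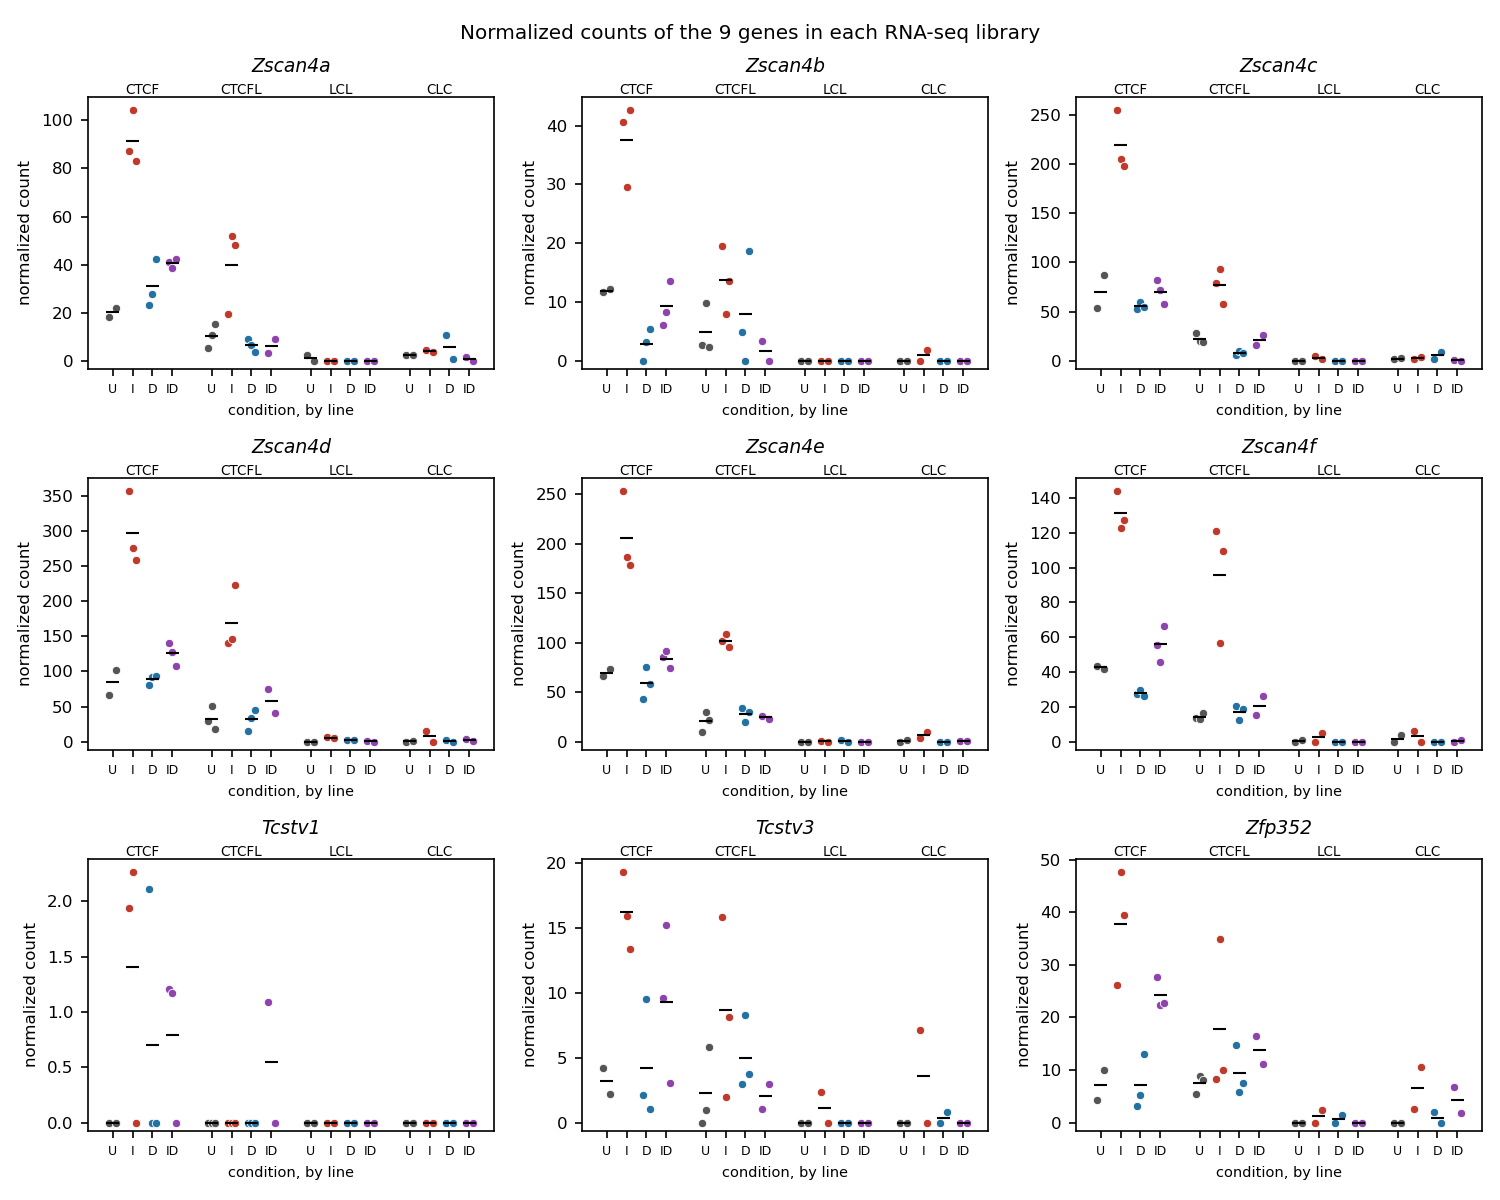
Normalized count of each of the 9 genes (vertical axis, a scale of its own per panel) in every RNA-seq library, by condition (U grey, I red, D blue, ID purple) and line. Points are libraries and black bars are group means. In the CTCF line all I points of the 6 Zscan4 genes and Zfp352 lie above the U points, and in LCL and CLC all 9 genes stay at or below 15.2.

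The CTCFL line, a separate clone, gave the same direction for the Zscan4 genes from lower starting levels. Zscan4d was at 29.6, 50.4 and 17.4 in U and at 140, 146 and 223 in I, 5.42-fold higher (log2 2.44 ± 0.43, limma adjusted p = 8.55e-05). Zscan4f was at 13.5, 12.9 and 16.3 in U and at 121, 56.9 and 110 in I, 6.09-fold higher (log2 2.61 ± 0.46, adjusted p = 0.000108). Zscan4e was at 9.43, 29.7 and 22.1 in U and rose to 102, 109 and 95.9. The groups did not overlap for any of these genes. Zscan4c rose from 28.3, 19.8 and 18.6 to 79.3, 92.8 and 57.9 (log2 1.74 ± 0.48, adjusted p = 0.00547). Zscan4a had 5.39, 10.9 and 15.1 in U and 19.6, 51.9 and 48.0 in I, a log2 change of 1.82 ± 0.70 that did not pass (adjusted p = 0.0417). Zfp352 overlapped, with 5.39, 8.89 and 8.13 in U and 8.39, 34.9 and 9.96 in I (log2 0.89 ± 0.72, adjusted p = 0.343), where replicate 2 of I stood above the rest. Of the 6 genes tested, 5 had every I library above every U library, as had 27.5% of all genes. In all, 4 were called higher, against 3.69% of 16840 genes, and edgeR and DESeq2, on the libraries whose reads could be recovered, each called 3 (Zscan4d, Zscan4e and Zscan4f). Their median log2 fold change was 2.11, beside 0.04 over all genes. Both lines share their parental degron cells and differ in the transgene, which was not induced in U or I.

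**Figure D2:**
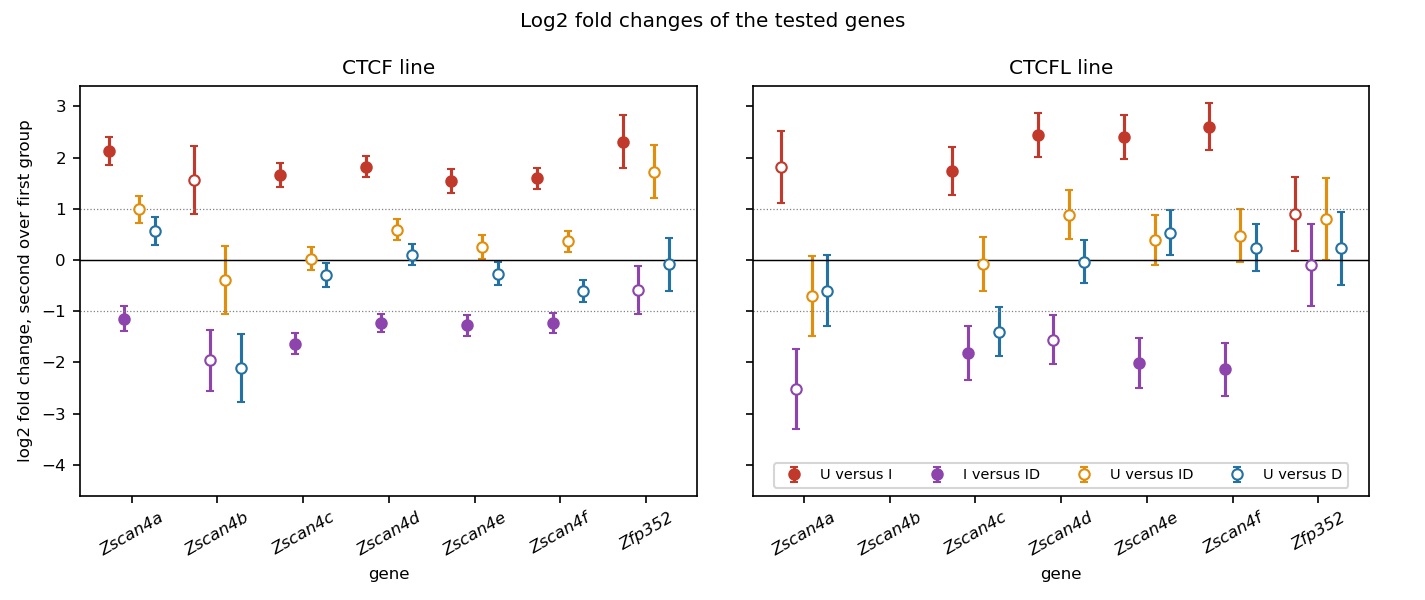
Log2 fold change of the second over the first group (vertical axis) of the 7 genes with enough reads in the CTCF or CTCFL line, for 4 comparisons. Error bars are SE, filled points were called by limma, and Zscan4b was not tested in the CTCFL line. The U versus I points lie above 0 and the I versus ID points below 0 for all genes shown.

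In LCL and CLC the same genes were near the limit of detection, and none of the 9 had a mean of 10 or more. Without that filter limma called none of them in U versus I. The smallest adjusted p were those of Zscan4d (log2 2.77 ± 0.70, adjusted p = 0.0116) and Zscan4c (1.95 ± 0.55, adjusted p = 0.0228) in LCL and of Zscan4e (2.25 ± 0.62, adjusted p = 0.0334) and Zfp352 (2.71 ± 0.84, adjusted p = 0.0497) in CLC, and Zscan4a in LCL lay the other way (-0.86 ± 0.56, adjusted p = 0.356). Reads of Zscan4a to Zscan4f summed to 2 in both U libraries of LCL and to 14 and 22 in the I libraries. In CLC the sums were 5 and 9 in U and 21 and 35 in I. As normalized counts these are 2.28 and 1.23 in U and 12.8 and 11.3 in I of LCL, and 4.22 and 10.7 in U and 31.3 and 18.6 in I of CLC. Within both lines the I libraries were the higher ones, but an exact two-sided permutation test of 2 against 2 libraries cannot go below p = 0.333. The U libraries of LCL and CLC, with 26349345 to 48070042 reads, were all deeper than those of the CTCF line, with 22920573 and 23956788. The untreated LCL and CLC libraries also held less of the primitive endoderm markers, whose sums were 594 to 630 against 5844 to 7069 in the CTCF and CTCFL lines, and more of the ES cell markers, at 217742 to 255037 against 142901 to 173855, and the part of these states in the low Zscan4 level was not tested. The sample descriptions of LCL and CLC carry the tag 2i, the usual name of a medium with inhibitors of MEK and GSK3, and those of the other lines do not, although 1 growth protocol, with both inhibitors, is given for all. Line, clone and whatever this tag stands for cannot be told apart. In the fit of all 38 libraries, the mean IAA effect over the 4 lines called 5 of 6 genes tested higher (Zscan4c, Zscan4d, Zscan4e, Zscan4f and Zfp352, log2 1.31 to 2.12), against 6.68% of 16480 genes, with Zscan4a at 0.91 ± 0.34 (limma adjusted p = 0.0208). These genes passed the filter of that fit only through their levels in the CTCF and CTCFL lines, so this mean does not show a rise in LCL or CLC.

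Whether IAA acted more strongly in 1 line was tested directly. For the CTCF line minus the CTCFL line limma called 0 of 6 genes (0 at an unadjusted p under 0.05, 0 with edgeR and 0 with DESeq2, against 0.37% of all genes), with log2 differences from -1.01 ± 0.93 for Zscan4f to 1.42 ± 0.99 for Zfp352. The SE of these differences ranged from 0.64 to 0.99. For LCL minus CTCFL limma called 0 (2 at an unadjusted p under 0.05, Zscan4a and Zscan4e, both lower; 0 with either read-based test, against 2.86% of all genes). For CLC minus CTCFL it also called 0 (2 at an unadjusted p under 0.05, Zscan4c and Zscan4f, both lower; 0 with either read-based test, against 3.63%). With a pseudocount of 5 instead of 1 these last counts became 2 and 1. The genes were near the limit of detection in LCL and CLC. They entered this fit through their levels in the CTCF and CTCFL lines. The comparisons of LCL and CLC with CTCFL thus cannot decide whether IAA acted differently there.

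The summed level of Zscan4a to Zscan4f orders the 16 groups. It was highest in I of the CTCF line, 984 ± 135 (SD, n = 3), then in I of the CTCFL line, 498 ± 44.1 (n = 3), and in the libraries labelled ID of the CTCF line, 385 ± 24.8 (n = 3). U of the CTCF line followed with 299 ± 55.6 (n = 2). Each of these groups stood apart from the next. U and D of the CTCF line overlapped, with 265 ± 32.96 in the libraries labelled D (n = 3). The CTCFL line followed with 133 ± 10.01 in ID (n = 2), 105 ± 24.9 in U and 98.9 ± 21.6 in D (n = 3 each), and these 3 overlapped in turn. All groups of LCL and CLC were below 26, with I the highest in each line. Per kilobase of exon, Zscan4d had the highest level in I of the CTCF line, 131 ± 23.2 normalized counts, followed by Zscan4e with 115 ± 23.0 and Zscan4c with 96.5 ± 13.8, which lie within their spread of each other. Zscan4f followed with 67.1 ± 5.78 and Zscan4a with 40.2 ± 5.01. Zscan4b (20.9 ± 3.94), Tcstv3 (20.8 ± 3.84) and Zfp352 (16.6 ± 4.78) were lower and did not differ beyond their spread, and Tcstv1 was at 1.00 ± 0.88 (all n = 3). How reads divide among the near-identical Zscan4 copies is uncertain, and so is the order of the single Zscan4 genes.

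**Figure D3:**
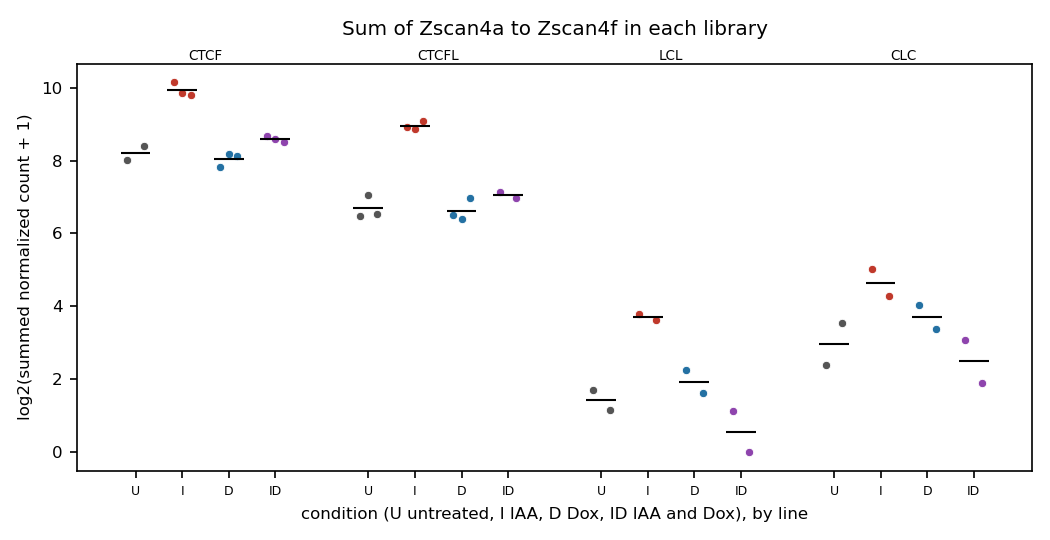
Sum of the normalized counts of Zscan4a to Zscan4f in each library, as log2(sum + 1) (vertical axis), by condition and line. Points are libraries and bars are means of the log2 values. The I libraries are the highest group within each of the 4 lines, and the LCL and CLC lines lie below the CTCF and CTCFL lines throughout.

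Dox without IAA, which in the CTCFL line adds CTCFL to cells that keep CTCF, left the genes near their untreated levels. Zscan4d was at 15.8, 34.3 and 44.95 in D of the CTCFL line, overlapping the 17.4 to 50.4 of U (log2 -0.03 ± 0.43). Zscan4f was at 20.7, 12.4 and 18.7 and Zscan4e at 33.5, 20.1 and 29.96, and both overlapped U. Zscan4c was the exception in its range, with 5.92, 10.1 and 7.49 in D, all below the lowest U value of 18.6 (log2 -1.40 ± 0.48), but did not pass (limma adjusted p = 0.0255). Limma called 0 of 6 genes (1 at an unadjusted p under 0.05, Zscan4c; 0 with edgeR and 0 with DESeq2), where 5.9% of all genes were called in either direction. With all 4 lines in 1 fit Zscan4c was called. In the libraries labelled D of the CTCF line limma also called 0, of 7 genes (2 at an unadjusted p under 0.05, Zscan4b and Zscan4f, both lower; 0 with edgeR and 0 with DESeq2), where 0.455% of all genes were called. Zscan4f was at 27.4, 29.8 and 26.1 there, below 41.98 and 43.6 in U (log2 -0.61 ± 0.21, adjusted p = 0.0642). Zscan4b was at 0, 3.19 and 5.43, below 11.7 and 12.2 (log2 -2.11 ± 0.67, adjusted p = 0.0451). Zscan4a lay the other way without overlap, at 23.2, 27.6 and 42.4 against 18.1 and 22.1 (log2 0.57 ± 0.27, adjusted p = 0.161).

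Where both agents were given, the genes were lower than with IAA alone. In the CTCF line Zscan4d was at 141, 128 and 107 in the libraries labelled ID, below all I libraries (0.426 of the I level, log2 -1.23 ± 0.18, limma adjusted p = 0.000155). Zscan4c was at 82.0, 71.6 and 57.5 (0.322 of the I level, log2 -1.63 ± 0.20, adjusted p = 4.08e-05), within its U range of 53.2 to 87.3. Zscan4a (40.99, 38.7 and 42.4), Zscan4e (85.6, 91.5 and 74.2) and Zscan4f (55.5, 45.8 and 66.6) fell by 1.14, 1.28 and 1.23 on the log2 scale. In all 5 of 7 genes were called lower, against 3.3% of all genes, and Zscan4b, at 6.03, 8.21 and 13.6, was called by edgeR and DESeq2 but not by limma (log2 -1.96 ± 0.60, adjusted p = 0.0189). With all 4 lines in 1 fit limma called 1, Zscan4c. Zfp352 stayed nearer to its I level, at 27.7, 22.3 and 22.7 (log2 -0.58 ± 0.46, adjusted p = 0.339), and its lowest I library was within that range. Of the 7 genes, 6 had every ID library below every I library, as had 28.9% of all genes.

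In the CTCFL line, where ID cells hold CTCFL in place of CTCF, Zscan4e was at 26.2 and 23.1 in ID against 95.9 to 109 in I (0.249 of the I level, log2 -2.01 ± 0.48, limma adjusted p = 0.00207). Zscan4f was at 15.3 and 26.1 against 56.9 to 121 (log2 -2.13 ± 0.52, adjusted p = 0.00226) and Zscan4c at 16.4 and 26.1 against 57.9 to 92.8 (log2 -1.81 ± 0.53, adjusted p = 0.00916). These 3 of 6 genes were called lower, against 3.89% of all genes. Zscan4d, at 75.4 and 41.2 (log2 -1.55 ± 0.48, adjusted p = 0.0122), and Zscan4a, at 3.28 and 9.05 (log2 -2.52 ± 0.78, adjusted p = 0.013), lay just outside the threshold. These 5 genes had every ID library below every I library, as had 31.8% of all genes. The read-based tests had only 1 ID library with recovered reads, so their counts are not given here. The limma count depended on the fit: it was 5 with a pseudocount of 5 or with both groups alone in the fit. Without replicate 1 of ID it was 0, and without replicate 2 of ID, or replicate 1 or 3 of I, it was 1. Zfp352 was at 16.4 and 11.1 in ID and showed no shift from I (log2 -0.10 ± 0.81, adjusted p = 0.94).

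For U versus ID of the CTCFL line the read-based tests also had only 1 ID library and are left out. Against U, limma called 0 of 6 genes in ID of the CTCFL line (0 at an unadjusted p under 0.05), where 19.6% of all genes were called in either direction, with log2 changes from -0.70 ± 0.78 (Zscan4a) to 0.89 ± 0.48 (Zscan4d). In the libraries labelled ID of the CTCF line it called 0 of 7 (3 at an unadjusted p under 0.05; 0 with edgeR and 1, Zfp352, with DESeq2), where 14.9% of all genes were called. Those 3 were Zscan4a (log2 0.99 ± 0.27, adjusted p = 0.00761), Zscan4d (0.59 ± 0.20, adjusted p = 0.0259) and Zfp352 (1.73 ± 0.52, adjusted p = 0.0122), and 5 of the 7 genes (those 3, Zscan4e and Zscan4f) had every ID library above both U libraries, as had 37.5% of all genes. Zscan4a thus missed the fold limit by a little, and Zfp352 in ID was at 3.32 times its U level. U versus I and I versus ID share the I libraries.

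The change with Dox in the presence of IAA was set against the change with Dox alone, a comparison chosen after the values were seen. In the CTCF line the difference was called in 3 of 7 genes, with log2 differences of -1.71 ± 0.36 for Zscan4a (limma adjusted p = 0.0064), -1.34 ± 0.31 for Zscan4c (0.00948) and -1.34 ± 0.27 for Zscan4d (0.00495), against 1.76% of all genes called lower. Zscan4e (-1.01 ± 0.31, adjusted p = 0.0409) and Zscan4f (-0.62 ± 0.29, adjusted p = 0.158) lay in the same direction and did not pass. In the CTCFL line Zscan4e alone of 6 was called (-2.54 ± 0.65, adjusted p = 0.00807), against 1.64% of all genes, while Zscan4f, Zscan4a and Zscan4d were at -2.38, -1.92 and -1.52 and did not pass. In the CTCF line the count was 0 without replicate 1 of U, replicate 2 or 3 of D, or replicate 2 or 3 of ID, and 1 without replicate 2 or 3 of I or replicate 1 of ID. In the CTCFL line the count was 0 without any 1 of the I or ID libraries, replicate 1 of U, or replicate 1 or 3 of D, and 0 with edgeR and DESeq2. With the replicate number as a block the counts were 1 and 0. The read-based tests of the CTCFL line had only 1 ID library.

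The Tcstv genes had a mean under 10 in every line and were tested only without that filter. Tcstv1 was at 0 in 32 of 38 libraries and never above 2.27. Its reads in the CTCF line were 0 in both U libraries and 0 to 2 in I, which is under the 3 reads that a count of 0 allows. Tcstv3 was at 4.25 and 2.21 in U and at 19.4, 15.9 and 13.4 in I of the CTCF line, and at 9.64, 15.3 and 3.03 in the libraries labelled ID. All I libraries were above the U libraries there, with 14 to 20 reads against 2 to 4. In the CTCFL line it overlapped, at 0, 0.99 and 5.81 in U and 15.9, 2.00 and 8.15 in I. Without the filter limma gave Tcstv3 a log2 change of 2.05 ± 0.76 in U versus I of the CTCF line (adjusted p = 0.0702) and 1.70 ± 0.93 in the CTCFL line (adjusted p = 0.25), neither of which passed, while the mean IAA effect over the 4 lines, 1.53 ± 0.44, did (adjusted p = 0.00733). Tcstv1 was at 1.09 ± 0.64 in the CTCF line (adjusted p = 0.291) and at 0.27 ± 0.21 over the 4 lines (adjusted p = 0.419). The transcripts of both genes share 50-base words with each other or with neighbours of the same family.

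Other genes of the two-cell stage were read from a list. Of its 66 genes, among them Zscan4-ps copies, the Usp17l deubiquitinases, Pramel6, Tmem92 and Arg2, 61 were in the table. In U versus I, 26 of 33 tested were called higher in the CTCF line and 16 of 29 in the CTCFL line, where 5.0% and 3.69% of all genes were. None was called lower, and the median log2 changes were 1.87 and 2.25. In LCL 3 of 10 and in CLC 6 of 17 were called higher, where 4.25% and 6.7% of all genes were. Usp17lc had 11.2 ± 5.47 (SD) in U and 108 ± 16.4 in I of the CTCFL line (n = 3 each, log2 3.26 ± 0.46, limma adjusted p = 7.13e-06), and Usp17ld 8.29 ± 7.09 and 66.7 ± 28.4 (log2 3.04 ± 0.82, adjusted p = 0.00478). In CLC, Usp17la and Usp17le rose by 3.58 ± 0.47 and 3.49 ± 0.64 (adjusted p = 0.000478 and 0.00269). The Usp17l genes are near copies of each other and carry the same doubt as Zscan4. In I versus ID, 19 of 33 were called lower in the CTCF line and 4 of 29 in the CTCFL line, against 3.3% and 3.89% of all genes, and none was called higher. The genes of the list were chosen with earlier results of these data known.

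**Figure D4:**
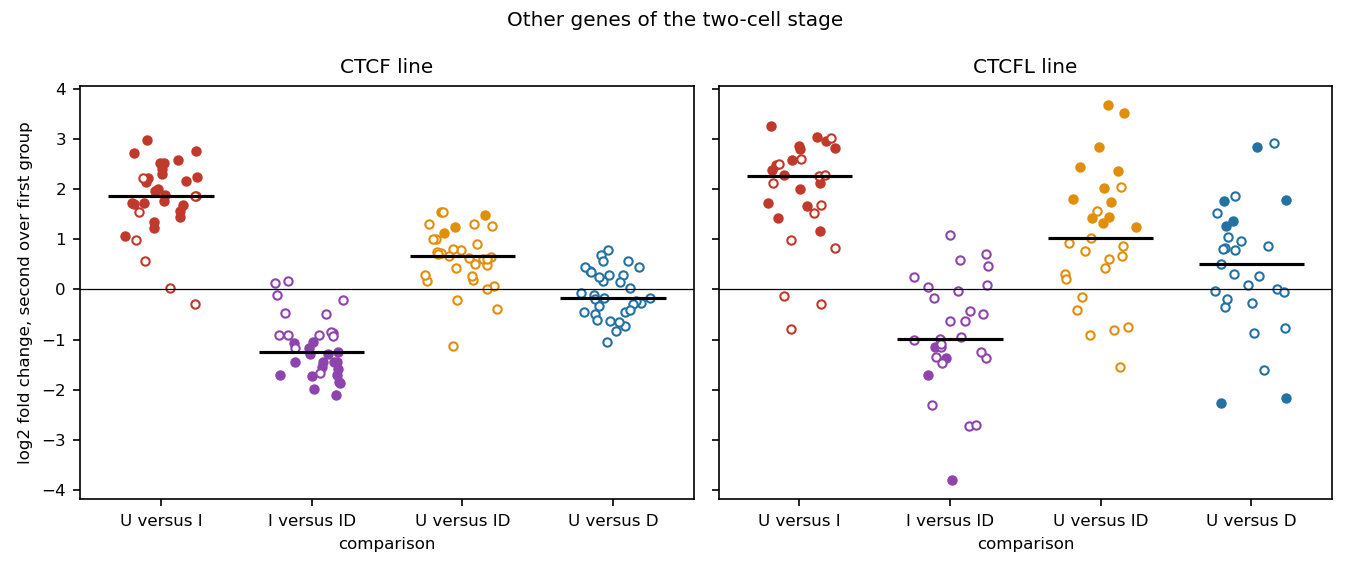
Log2 fold change of the second over the first group (vertical axis) of the tested genes on the list of other two-cell genes, 33 in the CTCF line and 29 in the CTCFL line, for 4 comparisons. Each point is a gene, filled where called, and bars are medians. Medians are 1.87 and 2.25 in U versus I and -1.25 and -0.996 in I versus ID.

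Dox without IAA moved a few of them in the CTCFL line, where CTCF was kept. In U versus D of the CTCFL line 5 of 29 were called higher and 2 lower, where 3.76% and 2.14% of all genes were, and the 5 were named after their values were seen: Arg2 (arginase 2, log2 2.84 ± 0.47), Sp110 (1.78 ± 0.50), Gm21761 (1.77 ± 0.25), Zfp750 (1.37 ± 0.10) and Ddit4l (1.28 ± 0.11), with limma adjusted p from 1.53e-09 to 0.00767. Zscan5b fell from 46.6 ± 18.9 (SD) to 8.28 ± 1.04 (log2 -2.27 ± 0.49, adjusted p = 0.00105) and Pramel7 from 151 ± 5.91 to 34.1 ± 9.98 (log2 -2.16 ± 0.27, adjusted p = 2.55e-06, n = 3 each). The genes called higher also rose with IAA alone in this line. In U versus I, Arg2, Sp110, Gm21761, Zfp750 and Ddit4l had log2 changes of 2.82, 2.13, 1.73, 0.98 and 1.16. Zscan5b and Pramel7 were at -0.78 and -0.13 there. No gene of the list was called in the libraries labelled D of the CTCF line, where the median log2 change was -0.17. In U versus ID, 12 of 29 were called higher in the CTCFL line, against 8.91% of all genes, and 4 of 33 in the CTCF line, against 5.59%. Arg2, Ddit4l and Zfp750 were among both, and the difference between the lines was not tested.

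Known regulators of the two-cell-like state were read from lists of positive regulators and repressors. Among positive regulators other than Zscan4c, 0 of 8 tested were called in U versus I of either line (limma). Dppa2, which acts upstream of Dux, was 1.87-fold higher in I of the CTCF line (log2 0.90 ± 0.09, limma adjusted p = 2.67e-06) and 1.66-fold higher in the CTCFL line (0.73 ± 0.12, adjusted p = 6.15e-05), under the fold limit, while its partner Dppa4 was at -0.01 ± 0.11 and -0.13 ± 0.09 and did not pass. Duxf3, a copy of the Dux gene that drives this program, was at 0 and 1.10 in U and 6.78, 2.27 and 4.19 in I of the CTCF line, and at 0 in all 3 U libraries and 0, 4.99 and 6.34 in I of the CTCFL line, too low to test. The libraries labelled D and ID of the CTCF line held 1.05 to 5.31 and 1.21 to 3.52 of it. Both ranges overlapped I, and that of D also overlapped U. In the CTCFL line Duxf3 was at 0 in D and at 0 and 2.01 in ID. Of 28 repressors, Tet1, a 5-methylcytosine dioxygenase, was the only one called in U versus I of the CTCF line (log2 -1.06 ± 0.12, adjusted p = 1.17e-05), and none was called in the CTCFL line. The share of all genes called lower is not given for U versus I of these lines. In U versus D, 1 of the 28 was called lower in the CTCF line and 1 in the CTCFL line. They were Tet2 (-1.12 ± 0.15, limma adjusted p = 0.00125) and Trim28, a corepressor of retroelements (-1.01 ± 0.06, adjusted p = 1.02e-10). Of all genes, 0.455% were called in either direction in the CTCF line and 2.14% lower in the CTCFL line. A count of 1 says little about the list. In U versus I of LCL 1 of the 28 was called lower, the chromatin remodeller Atrx (-1.38 ± 0.11, adjusted p = 9.38e-09), against 5.34% of all genes, and Atrx was also called lower in U versus D (-1.43 ± 0.11). In U versus I of CLC 3 were called lower, against 6.1% of all genes: Atrx (-1.34 ± 0.27, adjusted p = 0.00407), Rif1, a repressor of the Zscan4 genes (-1.13 ± 0.26, adjusted p = 0.008), and Smchd1, just past the fold limit (adjusted p = 0.00232). In U versus ID 6 of the 28 were called lower in the CTCFL line and 5 in the CTCF line, against 10.7% and 9.26% of all genes. Of the telomere and DNA repair genes none was called in U versus I of the CTCF or CTCFL line (limma), and Pot1a was lower in CLC (-1.12 ± 0.14, adjusted p = 0.000362).

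Markers of other states moved beside the 9 genes in the CTCF line. The pluripotency genes Esrrb and Sox2 fell from 23508 ± 1396 (SD) to 9586 ± 58.4 and from 16014 ± 1054 to 7679 ± 459 (n = 2 and 3, log2 -1.29 ± 0.07 and -1.06 ± 0.11, limma adjusted p = 1.81e-08 and 4.14e-06), 2 of 8 ES cell markers. The median log2 change of the 8 was -0.36. The share of all genes called lower is not given for this comparison, so the count alone says little about the list. Cdx2, a trophectoderm transcription factor, rose from 2.70 ± 0.69 to 16.9 ± 3.98 and the keratin Krt18 by 1.20 ± 0.10 on the log2 scale, 2 of 5 trophectoderm genes tested. Of all genes, 5.0% were called higher there. In the CTCFL line no marker of these lists was called in U versus I, and Esrrb and Sox2 went from 16658 ± 327 to 8587 ± 497 and from 9842 ± 440 to 5417 ± 142 (n = 3 each), under the fold limit. In U versus I of CLC 6.7% of all genes were called higher. Among them were 2 of 5 primitive endoderm genes tested (Gata6 and Dab2), 1 of 4 trophectoderm genes (Krt18) and 1 of 2 fibroblast genes (Col1a1), at log2 1.99, 1.09, 1.499 and 1.95. In LCL 4.25% of all genes were called higher, among them 1 primitive endoderm gene (Gata6, 1.22 ± 0.31) and 1 trophectoderm gene (Krt18, 1.11 ± 0.14). No ES cell marker was called in LCL or CLC. The part of these markers in the changes of the Zscan4 genes was not tested.

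Outside the 9 genes, the profile most like theirs was that of Epc1, a subunit of the NuA4 acetyltransferase complex. Likeness was taken as Pearson's r over the 38 libraries with the mean profile of the 9, each centred on its line mean, among 16474 genes with a median r of 0.04. Epc1 had r = 0.91, followed by Il34 (0.87), Enpp4 (0.86), Arih2 (0.86), Trim56 (0.85), Ddx19a (0.85), Usp17lb (0.85) and Evi5l (0.85). The points share libraries and conditions, and these values are a description. Only Usp17lb among these 8 is on a list of two-cell genes. Epc1 was at 614 ± 25.7 (SD, n = 2) in U and 997 ± 36.9 (n = 3) in I of the CTCF line, and at 772 ± 33.3 and 1255 ± 19.7 (n = 3 each) in the CTCFL line. Il34, a ligand of the CSF1 receptor, was at 70.1 ± 13.4 and 256 ± 23.5 in the CTCF line and at 44.1 ± 6.28 and 168 ± 42.04 in the CTCFL line.

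Binding beside the genes was read from the FLAG ChIP-seq peaks of the transgenic proteins, a site being counted where the peaks of replicates 1 and 2 overlapped. CTCF had no site within 3 kb of the start of any of the 9 genes in D or ID, where 17.3% and 13.2% of 55450 gene starts had one. It had 2 sites in the Zscan4 cluster, both in D and ID. In ID the first lay at chr7:11158048-11158531, which is 2843 bases beyond the 3′ end of Zscan4d and 7628 bases from its start. The second lay at chr7:11616745-11617644, which is 2633 bases beyond the 3′ end of Zscan4-ps3, the last copy of the cluster, and 7437 bases from its start. Neither overlaps a Zscan4 gene or a Zscan4-ps copy, and other annotated genes were not compared. Their −log10 q values in replicates 1 and 2 were 15.4 and 34.3 in D and 42.04 and 10.2 in ID at the first site, and 46.6 and 48.5 in D and 90.9 and 79.9 in ID at the second.

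The bases beneath both sites are shown because they are copies of each other. The window of 101 bases at the second site is centred on the overlap of its 4 CTCF peaks, that at the first is its best match within the site, both run 5′ to 3′ in the direction of the Zscan4 copy beside them, and capitals mark the longest run of 49 bases that they share.
Site beside Zscan4d, chr7:11158195-11158295, minus: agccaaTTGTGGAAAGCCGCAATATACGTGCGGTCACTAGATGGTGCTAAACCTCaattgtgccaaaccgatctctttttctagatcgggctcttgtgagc
Site beside Zscan4-ps3, chr7:11617208-11617308, plus: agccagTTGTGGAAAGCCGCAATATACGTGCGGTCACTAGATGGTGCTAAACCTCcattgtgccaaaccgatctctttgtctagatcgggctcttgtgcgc
Of the 101 bases 97 were the same. On either strand of the cluster, 20 kb on both sides included, these were the only 2 places that matched the second window at 65% or more of its bases. Bases next to it were not particular to the 2 sites: the longest run shared by the whole sites, 83 bases long, had 9 such places in the cluster, with 79 to 83 bases the same.

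LCL, which carries the CTCF zinc fingers, had lower peaks at both places. At the second site it had peaks in both replicates of D and ID (−log10 q of 4.98 and 14.5 in D). At the first it had a peak in replicate 2 of D only and in both replicates of ID, at 2.79 and 4.12. CTCFL, CLC and the further chimeras CLL and LLC had no peak in the cluster in either replicate of D or ID. RAD21, a cohesin subunit, had a peak at both sites in replicate 1 of the CTCF line in D (−log10 q 2.19 and 4.01) and at the second site in replicate 1 of the CTCFL line in D (6.63), none of them in replicate 2, and no peak in ID of any line. The second replicates held fewer RAD21 peaks in these lines, 3764 against 22773 in D of the CTCF line and 239 against 20475 in D of the CTCFL line. In ID the second replicates held 789 (CTCF), 182 (CTCFL), 168 (LCL) and 357 (CLC), and the first 8602, 5826, 4855 and 2479. With so few peaks, their absence at the sites in ID does not show a loss of RAD21.

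CTCFL had a site near 1 of the 9 genes. Its peaks lay 2650 and 2734 bases from the start of Tcstv1 in D (−log10 q of 5.99 and 4.47) and 2897 and 2695 bases in ID (5.15 and 5.82), beyond the 3′ end of that gene, where 17.4% and 16.6% of all gene starts had a CTCFL site within 3 kb. With a window of 1 kb no site remained in D or ID, and with a −log10 q of at least 5 none in D. Tcstv1 itself was at 0 in all 3 D libraries of the CTCFL line. Tcstv3 had a single CTCF peak 3006 bases from its start, in replicate 2 of ID, and Zfp352 had no FLAG or RAD21 peak within 20 kb of the gene. The other 8 genes had no FLAG site and all 9 no RAD21 region within 3 kb in any of the 20 sets. Of all gene starts, 0.5% to 22.1% had such a site of LCL, CLC, CLL or LLC. Only 0.0812% to 1.39% had a RAD21 region, so the lack of one is no trait of these 9 genes. Peaks rest on reads that map to 1 place, and within 3 kb of the starts of Zscan4b, Zscan4c, Zscan4e and Zscan4f only 12.3% to 21.4% of 50-base words occurred once in the cluster (57.4% for Zscan4a and 64.0% for Zscan4d), against 83.2% and 81.9% in the CTCF sites of ID. Binding within the repeated part of these starts was therefore not detectable from these peak lists.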

How the data were processed

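RNA-seq (poly(A), paired-end) was aligned by the authors with STAR to GRCm38/mm10; the counting program is not given in the sources used here, and the submitters' notes name Trim Galore 0.4.4, SAMtools 1.3 and HTSeq. The deposited signal values are gene counts scaled by a size factor per library. Reads were recovered in 36 libraries (100% of values up to 500 reads within 0.1 of a whole read), but not in replicate 2 of CTCFL I and CTCFL ID, which the read-based tests leave out. For each line, log2(value + 1) of genes with a mean of at least 10 was fitted with limma 3.58.1 (R 4.3.3; group means, eBayes with trend); calls needed an adjusted p (Benjamini-Hochberg, all genes tested) under 0.01 and a log2 change past 1 in size. Fold changes on this scale understate those of low genes. Effects across lines came from 1 fit of all 38 libraries. ChIP reads were aligned by the authors with Bowtie2, and MACS peaks were called per replicate; the deposited fold enrichment (a ratio) is not quoted, and −log10 q is as deposited. Alternatives were another pseudocount, filter, normalization (TMM), set of libraries in the fit or fold limit, a block for the replicate number, edgeR 4.0.16, DESeq2 1.42.0, each library left out, and another peak window, q or replicate rule. The members, lists and rules were chosen with earlier results of these data known. Named were the 9 genes, up to 4 called genes per list and direction in U versus I or U versus D, and the 8 genes most alike. The scripts were tested on simulated data. Hi-C domain lists were not used here.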

Additional observations from a re-analysis of the deposited data

Results flagged for a closer look

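4 results were set aside because limma called a difference between the change with Dox in the presence and in the absence of IAA. The comparison was chosen after the values were seen, and its counts fell to 0 in both lines without some single libraries. The 4 results are log2 differences of -1.71 for Zscan4a, -1.34 for Zscan4c and -1.34 for Zscan4d in the CTCF line and of -2.54 for Zscan4e in the CTCFL line. For Zscan4a in the CTCF line the libraries labelled D were above U and those labelled ID were below I, while for Zscan4c and Zscan4d the libraries labelled D overlapped U. Ctcf reads did not rise with Dox in the CTCF line, and what this means for these differences was not tested. Groups of 2 or 3 libraries are too small for a check of single libraries that stand apart.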

How the results depend on the processing

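Counts of the 9 genes called kept within 1.5 times their value in 371 planned repeats and 16 added after seeing the data, and moved further in 26 and 24, where the cause was not tested unless stated. The 371 include comparisons within LCL and CLC, where no gene passed the filter, and peak sets with no site near a gene. Such counts could hardly move, so the 371 are no measure of how firm the other counts are. A minimum mean of 50 tested fewer genes and left 1 in U versus I of the CTCFL line, 0 in I versus ID and 0 for the Dox difference there, and 1 for the mean IAA effect. One fit of all 4 lines gave 2 in U versus I, 1 in I versus ID and 0 for the Dox difference of the CTCF line, and 1 in U versus D of the CTCFL line. A pseudocount of 5 gave 5 in I versus ID of the CTCFL line, 1 in U versus ID of the CTCF line, 3 for the mean IAA effect, and 2 (LCL) and 1 (CLC) for the line differences. No filter gave 1 in I versus ID of the CTCFL line and 1 (CTCF) and 0 (CTCFL) for the Dox difference. Both groups alone gave 5 and 1 in I versus ID (CTCFL) and U versus ID (CTCF), and no fold limit gave 1 in the latter. edgeR and DESeq2 moved the counts of I versus ID and of the Dox difference of the CTCFL line, where they had only 1 ID library. DESeq2 gave 1 in U versus ID of the CTCF line. CTCFL sites near a gene went from 1 to 0 in D and ID with a window of 1 kb and in D with a −log10 q of 5.

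With 1 library left out, counts were 3 to 4 (CTCFL) and 5 to 6 (CTCF) in U versus I, 0 to 2 and 4 to 5 in I versus ID, 0 to 1 and 0 to 2 for the Dox difference, 4 to 6 for the mean IAA effect, and 0 to 1 for CLC minus CTCFL. In replicate 3 of CTCFL D, 1 read was worth a normalized count of 3.75, so low values there are coarse.

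Replicate numbers were not shown to pair libraries, since deviations of libraries with the same number correlated at -0.064 to 0.065 (CTCFL), -0.297 to 0.162 (CTCF), -0.016 to 0.074 (LCL) and -0.253 to 0.056 (CLC). With the number as a block, 4 (CTCFL) and 6 (CTCF) genes were called in U versus I, 2 and 5 in I versus ID, 5 for the mean IAA effect, and 0 and 1 for the Dox difference.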
